A study of Mus musculus with 468 samples.

Results

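Ucp1 marks brown and beige adipocytes, and its abundance was used to pick out adipose libraries at both ends of its range. They were chosen by Ucp1 CPM, the count as a share of the library total on the usual CPM scale, and made up 50% of all libraries of the series. The libraries were first parted by Ddx3y, a gene of the Y chromosome, into those with no Ddx3y count (48.5%, called Ddx3y-negative and drawn as "without") and those with counts (51.5%, called Ddx3y-positive and drawn as "with"). Within each stratum the highest 1 in 4 libraries by Ucp1 CPM became the high group and the lowest 1 in 4 the low group, which gave 57 high and 57 low Ddx3y-negative libraries and 60 high and 60 low Ddx3y-positive libraries. The remaining libraries of each stratum, 24.1% and 25.9% of the series, are called the middle libraries. Because Ucp1 itself made the groups, its values are a description and it was left out of every test.

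Every library came from the adipose tissue of a single Diversity Outbred mouse, from a heterogeneous stock that mixes the genomes of several inbred strains, and all groups were fed 1 diet rich in fat and sugar. The labels give no sex, age, generation, body weight or depot. The study counts as many females among its adipose samples as there were Ddx3y-negative libraries, and as many males as Ddx3y-positive ones. By these counts the strata correspond to the sexes, though no label gives the sex of a single mouse. Of the Ddx3y-negative libraries, 2 had under 100 CPM of Xist, 1 in the high and 1 in the low group. Per the methods of the study, the mice were all harvested at 1 age and the tissue was visceral. The high and low groups are therefore not arms of an experiment. The labels and methods name no exposure to cold and no adrenergic agent, and what differs between the groups besides Ucp1 is not known.

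Brown and beige adipocytes burn fatty acids to make heat. UCP1 lets protons flow back across the inner mitochondrial membrane without making ATP, and noradrenaline acting on beta-adrenergic receptors raises cyclic AMP, which turns on lipolysis and the transcription of Ucp1 and Dio2. Such cells carry many mitochondria and isoforms of respiratory subunits that white adipocytes make at low levels. White adipocytes store triglyceride and secrete hormones such as leptin and adiponectin.

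Ucp1 (chromosome 8, 83290352 to 83298452, GRCm38) ranged in the Ddx3y-negative high group from 843 to 3308 CPM with a median of 1229, and in the low group from 0.240 to 73.6 CPM with a median of 18.3. In the Ddx3y-positive stratum it ranged from 7.80 to 88.3 CPM (median 16.8) in the high group and from 0.0650 to 0.976 CPM (median 0.468) in the low group. The medians differed 67.1-fold and 35.8-fold. At the borders of the groups, the lowest high library had 842.8 CPM and the next library below it 825.46 CPM in the Ddx3y-negative stratum, and 7.8041 and 7.6117 CPM in the other. The highest low library had 73.572 CPM and the next above it 75.404 CPM, and 0.97569 and 0.98526 CPM in the other stratum. High and low were thus different levels in the 2 strata: 40 of the 57 low Ddx3y-negative libraries lay inside the range of the high Ddx3y-positive group, and 17 lay below it. No library was without Ucp1 counts, and the smallest count was 4.

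**Figure D1:**
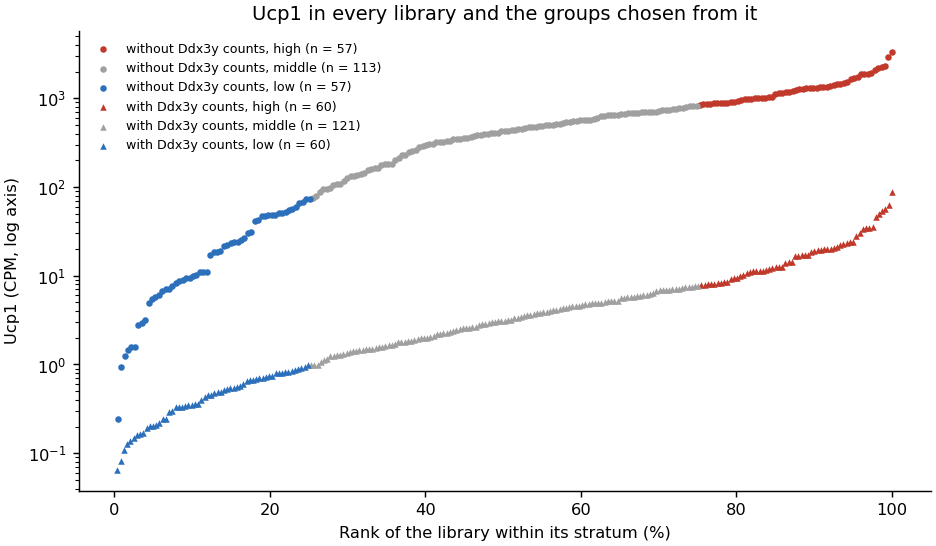
Ucp1 CPM on a log axis against the rank of each library within its stratum, in percent; circles are the Ddx3y-negative and triangles the Ddx3y-positive libraries, coloured by group. The high Ddx3y-negative libraries (843 to 3308 CPM) lie above all others, and the high Ddx3y-positive libraries (7.80 to 88.3 CPM) overlap the low Ddx3y-negative ones.

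Total counts per library ran from 35.3 to 137.8 M, and their means differed between the high and low groups by less than 1 M in both strata. The TMM factor, which corrects a library total for a few very abundant genes, had means of 0.847 ± 0.0773 (SD, n = 57) in the high and 1.05 ± 0.0799 (n = 57) in the low Ddx3y-negative group (permutation test, two-sided, 100000 resamples, p = 2e-05, the smallest it can give, adjusted p = 0.00016 over 8 comparisons). In the Ddx3y-positive groups these means were both 1.05. Mouse number and library number, taken from the sample names, gave adjusted p from 0.16 to 0.66. Adipocyte markers were abundant throughout: the smallest level in any of the 4 groups was 560.2 CPM for Adipoq, 573.5 for Plin1 and 3821 for Fabp4 after TMM scaling. By criteria on skeletal muscle, pancreas, epididymis, ribosomal RNA, and Ddx3y with Xist, 18 libraries stood apart, of which 5 were in the Ddx3y-negative and 4 in the Ddx3y-positive high and low groups.

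High and low groups were compared for every other gene with the quasi-likelihood test of edgeR within each stratum, and a gene was called at an adjusted p under 0.05. In the Ddx3y-negative stratum 12470 of 18370 genes were called (67.9%), 5423 higher in the high group (29.5%) and 7047 lower (38.4%). With library totals alone in place of TMM scaling these counts were 1987 higher and 13066 lower. In the Ddx3y-positive stratum 2261 of 18379 genes were called (12.3%), 1345 higher (7.32%) and 916 lower (4.98%). The size of the differences was unequal too. Among called genes, 1454 differed at least 2-fold in the Ddx3y-negative stratum (650 higher, 804 lower) and 120 in the other (85 higher, 35 lower), and the median absolute log2 difference over all genes was 0.28 and 0.09.

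The strata shared 1110 genes called in the same direction: those higher in both were 3.15% of the genes tested and those lower in both 2.9%. This was 8.90% of the calls of the Ddx3y-negative and 49.1% of the calls of the Ddx3y-positive stratum. Another 3.7% of the genes tested were called in opposite directions, which was 5.45% and 30.03% of the calls of the strata. Most of these were lower in the Ddx3y-negative and higher in the Ddx3y-positive high group (3.11% of the genes tested), and 0.582% were the reverse. The difference between the strata was tested directly as an interaction in a single fit of the 4 groups: 10280 of 18379 genes were called (55.9%), 4875 with the more positive change in the Ddx3y-negative stratum (26.5%) and 5405 with the more negative (29.4%). All genes of opposite direction passed this test, which those calls all but fixed because it used the same libraries. Of the genes higher in both strata, 410 had the larger increase in the Ddx3y-negative and 1 in the Ddx3y-positive stratum. Across 18370 genes, which are not independent of each other, the log2 fold changes of the strata had a Pearson r of -0.02 and a Spearman rho of 0.03. The strata share no library.

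**Figure D2:**
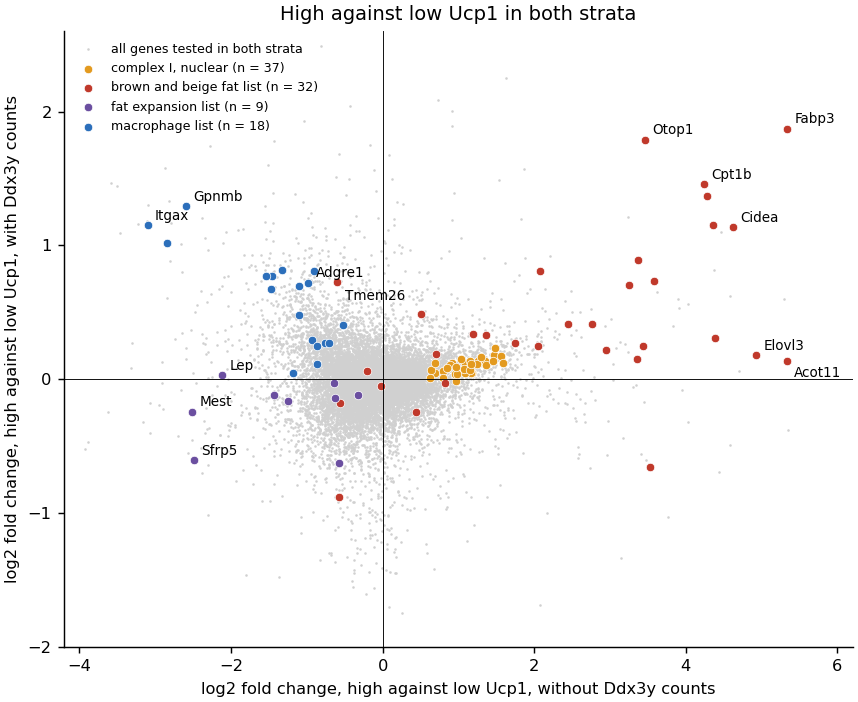
Log2 fold change of high against low Ucp1 libraries for each gene in the Ddx3y-negative (x axis) and Ddx3y-positive stratum (y axis); 15 genes lie outside the axes. Most brown and beige fat genes lie to the upper right, with Otop1 at 3.46 and 1.79, macrophage genes lie to the upper left, and Acot11 and Elovl3 lie far to the right near 0 on the y axis.

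The shared increase was led by genes of brown and beige fat. Of a list of 37 such genes apart from Ucp1, 32 were in the table and passed the filter on low counts. In the Ddx3y-negative high group 26 of the 32 rose and 2 fell (Tmem26 and Slc29a1), with a median log2 fold change of 2.85 against -0.05 over all genes tested. In the Ddx3y-positive high group 19 rose and none fell, with a median of 0.32 against 0.00 over all genes. The shares of all genes that rose were 29.5% in the Ddx3y-negative and 7.32% in the Ddx3y-positive high group. Of the 19, 18 rose in both strata and 1, Tmem26, was called in opposite directions, though its Ddx3y-positive call was lost in most of the alternatives. Zic1, Gyk, Bmp8b, Lhx8 and Ckmt2 were not among the genes tested. The list was written with earlier results of these data known. Whether the groups differ in the number of such adipocytes or in the RNA each of them makes cannot be told apart in bulk tissue.

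Cidea, a lipid droplet protein abundant in brown adipocytes, ranged from 181.002 to 1148 CPM (median 393.1, TMM-scaled) in the high and from 1.02 to 171.2 CPM (median 14.6) in the low Ddx3y-negative group. The groups did not overlap, and the fitted difference was 24.6-fold (log2 4.62 ± 0.23 SE, adjusted p = 2.51e-37). In the Ddx3y-positive stratum Cidea ranged from 3.13 to 85.5 CPM (median 18.6) in the high and from 1.61 to 38.6 CPM (median 7.78) in the low group. Here the groups overlapped, with 54 of 60 high libraries above the median of the low group, and the difference was 2.20-fold (log2 1.14 ± 0.17, adjusted p = 4.9e-07). The difference between the strata was 3.48 ± 0.26 on the log2 scale (adjusted p = 5.05e-28). Cidea kept its sign in each of 5 blocks of consecutive mouse numbers, with log2 differences of 4.71 to 6.07 and of 0.42 to 1.59.

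Cpt1b, the carnitine palmitoyltransferase isoform of muscle and brown fat that brings long-chain fatty acids to the mitochondria, had the lowest p of the brown fat genes in the Ddx3y-positive stratum. Its level was 163.5 to 726 CPM (median 320) in the high and 3.98 to 97.9 CPM (median 17.2) in the low Ddx3y-negative group. In the Ddx3y-positive groups it was 7.67 to 80.2 CPM (median 26.1) and 4.79 to 29.9 CPM (median 10.7). Its groups were separate in the first stratum, whereas in the second 22 of 60 high libraries lay above every low library. The differences were 18.8-fold (log2 4.24 ± 0.16) and 2.75-fold (1.46 ± 0.11, adjusted p = 7.22e-21).

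Otop1, a proton channel gene, had the largest smaller increase of the 2 strata among genes averaging 10 CPM or more in each. It ranged from 50.9 to 280.9 CPM in the high and from 0.512 to 40.8 CPM in the low Ddx3y-negative group (log2 3.46 ± 0.21), and from 4.03 to 58.8 CPM and 0.283 to 26.8 CPM in the Ddx3y-positive groups (1.79 ± 0.23). Clstn3, whose locus also makes a short adipocyte form that the gene count cannot separate, rose by 1.88 ± 0.14 and 0.90 ± 0.15, and Plin5, a perilipin that ties lipid droplets to mitochondria, by 2.08 ± 0.13 and 0.80 ± 0.13. Chchd10 of the mitochondrial intermembrane space (1.94 and 0.67), the phosphatase gene Phospho1 (3.90 and 0.60) and Pdk4, which encodes a kinase that shuts off pyruvate dehydrogenase (2.40 and 0.58), followed.

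Transcriptional regulators of the thermogenic program rose as well. Ppara, a nuclear receptor of fatty acid oxidation, rose by 3.58 ± 0.12 and 0.74 ± 0.11, the coactivator Ppargc1a by 2.76 ± 0.17 and 0.41 ± 0.14, Esrrg, an orphan nuclear receptor, by 2.45 ± 0.15 and 0.41 ± 0.12, and Prdm16, which sets brown and beige identity, by 1.19 ± 0.10 and 0.33 ± 0.09. The Ddx3y-positive call of Ppargc1a was lost with limma-trend and with library totals alone (adjusted p = 0.051 and 0.056). Ebf2, another determinant of that identity, rose in the Ddx3y-negative stratum (0.70 ± 0.07) and did not pass the test in the other (0.19 ± 0.09, adjusted p = 0.13). The potassium channel gene Kcnk3 rose by 1.74 ± 0.12 and 0.27 ± 0.08. Dio2, which makes active thyroid hormone inside the cell, ranged from 4.90 to 347.9 CPM in the high and from 0.128 to 12.7 CPM in the low Ddx3y-negative group (log2 4.28 ± 0.27), and from 0.173 to 15.4 CPM and 0.0991 to 6.19 CPM in the Ddx3y-positive groups (1.37 ± 0.22, adjusted p = 5.7e-06).

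Some of the largest increases of the Ddx3y-negative stratum were not detectable in the other. Acot11, an acyl-CoA thioesterase gene induced in brown fat, was at 87.999 to 1007 CPM (median 250.6) in the high and 2.02 to 36.2 CPM (median 6.22) in the low Ddx3y-negative group, a difference of 40.4-fold (log2 5.33 ± 0.19). Its Ddx3y-positive medians were 7.07 and 6.31 CPM and the ranges nearly coincided (log2 0.14 ± 0.15, adjusted p = 0.58). The difference between the strata was 5.20 ± 0.23 (adjusted p = 6.89e-57). Elovl3, which elongates very long chain fatty acids, behaved likewise, with 4.93 ± 0.29 in the Ddx3y-negative stratum and 0.18 ± 0.30 (adjusted p = 0.74) in the other, where it was near or below 1 CPM in most libraries. Aspg, an asparaginase gene, gave 4.38 ± 0.24 and 0.31 ± 0.18 (adjusted p = 0.27). Fabp3, the fatty acid binding protein of heart and muscle, had the largest increase of the named genes in the Ddx3y-negative stratum (5.34 ± 0.25) and also rose in the other (1.87 ± 0.24). Letmd1, a mitochondrial protein gene needed for brown fat thermogenesis, had the lowest p of the interaction among genes that averaged 10 CPM or more in each stratum: it rose by 2.94 ± 0.08 and 0.22 ± 0.04.

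**Figure D3:**
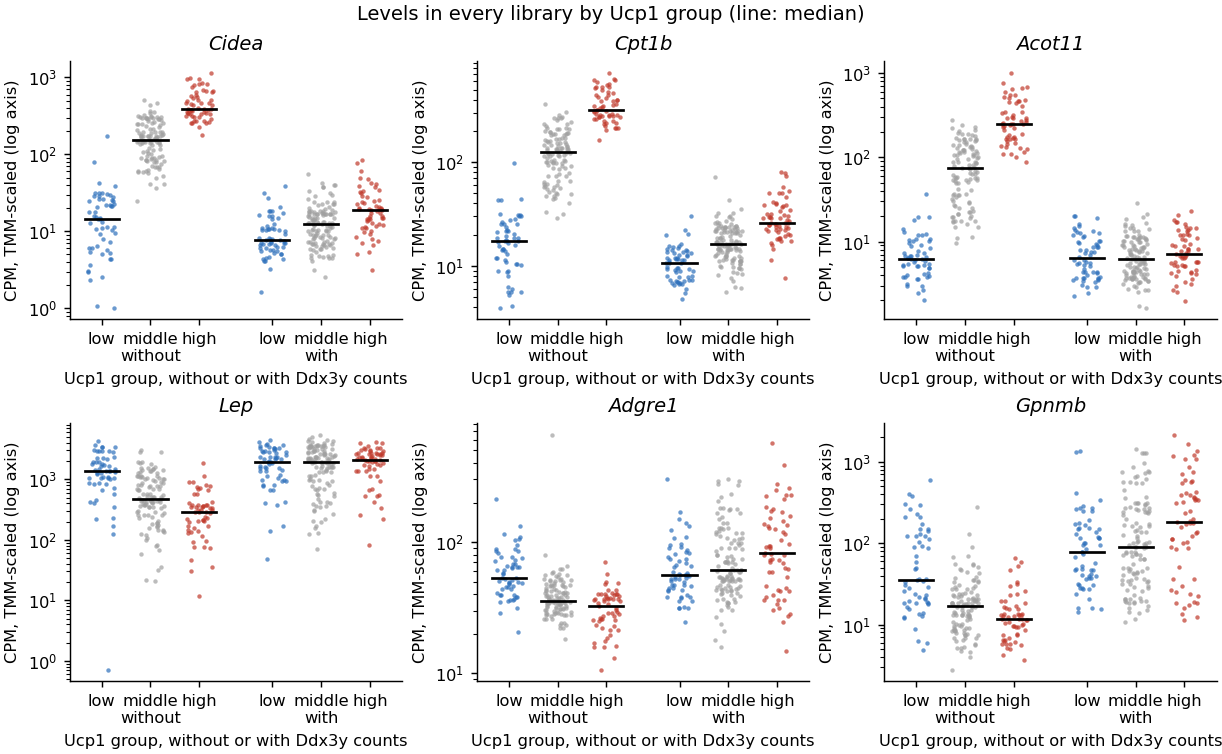
TMM-scaled CPM on a log axis in every library for 6 genes, by Ucp1 group and stratum; horizontal lines are medians. Cidea and Cpt1b step up with the Ucp1 group in both strata, Acot11 on the left side of its panel, and Adgre1 and Gpnmb step down on the left and up on the right, with wide overlap on the right.

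Several genes of the brown fat list, among them Cpt1b, Cox7a1, Cox8b and Fabp3, are also made by skeletal muscle. The summed level of 12 muscle genes had a median of 51.9 CPM (26.7 to 1280) in the high and 60.4 CPM (9.07 to 311.1) in the low Ddx3y-negative group, and 59.01 CPM (17.1 to 207.4) and 76.9 CPM (32.01 to 262.7) in the Ddx3y-positive groups. Of the 10 muscle genes that could be tested 8 rose and 2 fell in the Ddx3y-negative stratum, with a median of 2.20. Over all genes 29.5% rose and 38.4% fell there. Myh4 and Pvalb did not pass the filter. Ckm, the muscle creatine kinase gene, had a median of 0.300 CPM in the high and 0.121 CPM in the low group, and its highest library had 80.5 CPM. The high group held 2 libraries that stood apart by muscle genes. Without the libraries that stood apart the muscle list gave 7 higher and 2 lower with a median of 1.62, and the brown fat list was at 26 higher and 2 lower, with 18 higher in the Ddx3y-positive stratum. In these fits 5427 of all 18370 genes were higher and 7028 lower in the Ddx3y-negative stratum, and 1164 of 18379 higher in the other. With larger groups, of 1 in 3 libraries each, the muscle list had 1 higher and 2 lower with a median of 0.27. Of all 18370 genes 5374 were higher and 7118 lower with those groups. No muscle gene rose and 1 fell in the Ddx3y-positive stratum, where 4.98% of all genes fell. The part of muscle RNA in the brown fat result was not tested further.

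To show the sequence context of genes regulated by cyclic AMP and nuclear receptors, RefSeq windows from 250 bases before to 50 after each start site (GRCm38.p6) were searched on both strands for the cAMP response element TGACGTCA, the estrogen-related receptor element TCAAGGTCA and the nuclear receptor half-site AGGTCA, which lies within the receptor element. Windows existed for 29 of the 37 brown fat genes. Only Dio2 among them held the cAMP response element, 88 to 95 bases before the start, and no window of the list held the receptor element. Clstn3, which is not on the list, held the cAMP response element across its start site, beginning 1 base before it. The 150 bases before the start sites of Dio2 (chr12:90739039-90739188, minus strand) and of Ucp1 (chr8:83290198-83290347, plus strand) read as follows, with the cAMP response element of Dio2 and the half-site of Ucp1, 9 to 14 bases before its start, in capitals.
Dio2: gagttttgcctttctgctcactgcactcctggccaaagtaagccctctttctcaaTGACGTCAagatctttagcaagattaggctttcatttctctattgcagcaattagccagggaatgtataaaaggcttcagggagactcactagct
Ucp1: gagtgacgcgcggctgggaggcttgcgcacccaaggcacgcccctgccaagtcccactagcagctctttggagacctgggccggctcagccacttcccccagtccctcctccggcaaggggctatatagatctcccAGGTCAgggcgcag
The cAMP response element lay in the windows of 4.68% of the genes higher in both strata that had one (22 of 470), 3.67% of those lower in both, and 3.19% of the 12675 tested genes with a window. For the half-site these shares were 17.9%, 13.4% and 15.6%, and for the receptor element 0.426%, 0% and 0.347%. Over all 32851 windows the shares were 1.79%, 16.3% and 0.423%. These are matches of letters, not measured binding.

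Respiratory chain subunits exist as isoforms, and the brown fat and muscle isoforms stood out from their partners. Cox7a1, a complex IV subunit of muscle and brown fat, rose by 4.36 ± 0.15 in the Ddx3y-negative and by 1.15 ± 0.11 in the Ddx3y-positive high group. Its ubiquitous partner Cox7a2 rose by 0.94 ± 0.05 in the first and gave 0.08 ± 0.05 in the second (adjusted p = 0.28). Cox7a1 ranged in the Ddx3y-positive stratum from 1.08 to 9.46 CPM in the high and from 0.550 to 3.47 CPM in the low group, so that 23 of 60 high libraries lay above every low library. Cox8b rose by 3.36 ± 0.14 and 0.89 ± 0.13, whereas Cox8a gave 0.81 ± 0.05 and 0.01 ± 0.06 (adjusted p = 0.90). Cox4i2, the isoform linked to low oxygen, was not called in either stratum (-0.11 ± 0.10 and 0.04 ± 0.07), and Cox4i1 rose by 1.10 ± 0.05 in the Ddx3y-negative stratum and gave 0.12 ± 0.05 (adjusted p = 0.10) in the other. Cox6a1 rose by 1.31 ± 0.06 and 0.13 ± 0.05 (adjusted p up to 0.085 over the alternatives in the second), and Cox6a2 did not pass the filter.

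The relatives of UCP1 did not follow it in the same way. Ucp3, a muscle and brown fat form, rose by 1.60 ± 0.11 in the Ddx3y-negative stratum and gave 0.14 ± 0.12 (adjusted p = 0.43) in the other. Ucp2, which macrophages also make, fell by 0.86 on the log2 scale in the Ddx3y-negative stratum, with a range of 135.3 to 717.8 CPM in the low and 80.5 to 378.9 CPM in the high group, and gave 0.23 ± 0.11 (adjusted p = 0.14) in the other. Cpt1a, the carnitine palmitoyltransferase of liver and other tissues, fell by 0.74 in the Ddx3y-negative stratum, against the rise of Cpt1b, and gave 0.10 ± 0.05 (adjusted p = 0.18) in the other.

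**Figure D4:**
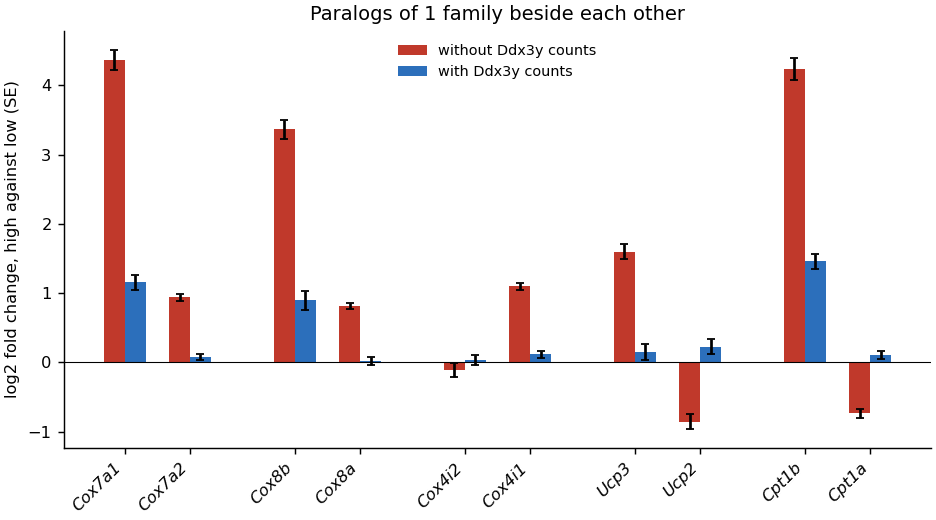
Log2 fold change of high against low Ucp1 libraries with its standard error for pairs of related genes in both strata. Cox7a1, Cox8b and Cpt1b exceed their partners in both strata, while Ucp2 and Cpt1a lie below 0 in the Ddx3y-negative stratum.

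Nuclear and mitochondrial genes of oxidative phosphorylation rose as a body in the Ddx3y-negative high group. All 37 complex I genes tested rose (median log2 fold change 1.11), as did 4 of 4 of complex II (1.46), 9 of 9 of complex III (1.30), 10 of 10 common subunits of complex IV (1.14) and 13 of 13 genes encoded by mitochondrial DNA (1.66). Of 15 genes of complex V 13 rose and Atp5g1 fell, with a median of 0.93. In the Ddx3y-positive high group 10 of 37 complex I genes rose (median 0.10), 4 of 4 of complex II (0.18), 5 of 9 of complex III (0.18), 3 of 10 of complex IV (0.12), 4 of 13 of the mitochondrial genome (0.18) and 5 of 15 of complex V (0.09), and none fell. Over all genes, 29.5% were higher in the Ddx3y-negative and 7.32% in the Ddx3y-positive high group. Every tested gene of complexes I to III and of the mitochondrial genome passed the interaction test, which called 55.9% of all genes. The number of complex I genes called in the Ddx3y-positive stratum was between 5 and 30 over the alternatives, and that of the mitochondrial genome between 1 and 9.

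As examples, Ndufs1, the largest subunit of complex I, rose by 1.49 ± 0.06 and 0.24 ± 0.06, Sdhb, an iron-sulfur subunit of complex II, by 1.60 ± 0.06 and 0.24 ± 0.06, Uqcrc1 of complex III by 1.73 ± 0.06 and 0.25 ± 0.05, and Atp5b, the catalytic subunit of ATP synthase, by 1.35 ± 0.05 and 0.19 ± 0.06. The mitochondrially encoded mt-Co1 ranged from 33810 to 101300 CPM in the high and from 10210 to 37010 CPM in the low Ddx3y-negative group (1.67 ± 0.08), and 53 of 57 high libraries lay above every low one. Its Ddx3y-positive medians were 17310 and 15350 CPM (0.20 ± 0.07, adjusted p = 0.038, no longer called with limma-trend or with mouse or library number as covariate), and its sign changed between blocks of mouse numbers (-0.06 to 0.41). The 13 mitochondrial genes together had a median of 144800 CPM in the high and 44170 CPM in the low Ddx3y-negative group, and 46820 and 41650 CPM in the Ddx3y-positive groups. The TMM factor was lower where this share was higher.

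Fuel oxidation followed. In the citric acid cycle 15 of 15 genes rose in the Ddx3y-negative (median 1.60) and 13 of 15 in the Ddx3y-positive high group (0.21). Cs, citrate synthase, rose by 1.32 ± 0.07 and 0.21 ± 0.06, and Sucla2, a subunit of succinyl-CoA synthetase, by 2.03 ± 0.07 and 0.27 ± 0.05, while Ogdh rose in the first stratum (1.82 ± 0.06) and gave 0.11 ± 0.05 (adjusted p = 0.14) in the second. Of 20 genes of fatty acid oxidation 19 rose and Cpt1a fell in the Ddx3y-negative high group (median 1.64), and 13 rose in the Ddx3y-positive (0.23). The shares of all genes that rose were 29.5% and 7.32%.

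Acaa2, the thiolase of the mitochondrial spiral, was at 312.9 to 1565 CPM in the high and 72.6 to 265.5 CPM in the low Ddx3y-negative group (2.61 ± 0.08). In the Ddx3y-positive groups it was at 100.1 to 225.1 CPM (median 148.7) and 78.8 to 146.6 CPM (median 105.7), and 31 of 60 high libraries lay above every low one (0.50 ± 0.05, adjusted p = 7.67e-16). The trifunctional protein genes Hadha (2.16 ± 0.07 and 0.38 ± 0.05) and Hadhb (2.28 ± 0.07 and 0.36 ± 0.05) and the acyl-CoA dehydrogenase genes Acadvl (2.47 ± 0.08 and 0.41 ± 0.08) and Acadm (1.62 ± 0.07 and 0.25 ± 0.06) rose in both. Hadha kept its sign in all 5 blocks of mouse numbers in both strata (1.97 to 2.29 and 0.20 to 0.56). The mitochondrial ribosome gave 24 of 24 higher (median 0.65) and 9 of 24 higher (0.10), with Mrpl12 at 0.93 ± 0.06 and 0.24 ± 0.05, and the peroxisome list gave 21 of 22 (0.43) and 4 of 22 (0.05). Regulators of mitochondrial biogenesis gave 13 of 14 higher (0.92) and 6 of 14 higher (0.10), and targets of PPAR alpha 10 of 14 higher with 2 lower (0.58) and 4 of 14 higher (0.10). These lists are not separate evidence, because they share members. Ppargc1a, Ppargc1b, Ppara, Esrrg, Esrra, Fabp3, Plin5, Cpt1b and Slc25a20 are also on the brown fat list. Sdha and Sdhb are on the lists of both complex II and the citric acid cycle. Over all genes 29.5% were higher in the Ddx3y-negative and 7.32% in the Ddx3y-positive stratum.

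Other metabolic routes were called mostly in the Ddx3y-negative stratum. All 19 tested genes of branched-chain amino acid breakdown rose there (median 0.64) and none was called in the other (median -0.02), and all 19 passed the interaction test. Bckdha, a subunit of the branched-chain ketoacid dehydrogenase, gave 1.43 ± 0.07 and 0.08 ± 0.09 (adjusted p = 0.59), and Aldh6a1, of valine breakdown, gave 0.67 ± 0.08 and -0.12 ± 0.10 (adjusted p = 0.43). Of 18 genes of glucose use 17 rose and Slc2a1 fell (median 1.12) in the first stratum, and 5 rose in the second (0.09). Over all genes 29.5% rose in the first and 7.32% in the second. Slc2a4, the insulin-responsive glucose transporter, gave 0.88 ± 0.09 and 0.07 ± 0.08 (adjusted p = 0.59), Hk2, which traps glucose in the cell, 1.63 ± 0.10 and 0.11 ± 0.07 (adjusted p = 0.26), and Pdha1 of pyruvate dehydrogenase rose in both (1.69 ± 0.09 and 0.18 ± 0.06), the second not with limma-trend (adjusted p = 0.077).

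Lipogenesis had 13 of 16 genes higher (median 0.73) in the Ddx3y-negative high group and 2 of 16, Elovl6 and Me1, in the other (0.14). The shares of all genes that were higher were 29.5% and 7.32%. Fasn, fatty acid synthase, rose by 1.57 ± 0.17 in the first, with medians of 21140 and 5619 CPM, and gave 0.20 ± 0.11 (adjusted p = 0.22) in the second. Elovl6, which elongates its products, rose in both (2.10 ± 0.22 and 0.53 ± 0.17). The lipogenic regulator Mlxipl rose by 1.66 ± 0.12 in the first and gave 0.18 ± 0.08 (adjusted p = 0.11) in the second, and Thrsp gave 1.61 ± 0.19 and 0.00 ± 0.15. Of 8 lipolysis genes 6 rose and Cidec fell in the first stratum (0.30) and none was called in the second, with Pnpla2, adipose triglyceride lipase, at 0.62 ± 0.06 and -0.08 ± 0.09.

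Genes of the signalling upstream of Ucp1 moved in both directions. Of 15 genes of adrenergic and cyclic AMP signalling 7 rose and 3 fell in the Ddx3y-negative stratum (median 0.22), and 2 rose and 1 fell in the Ddx3y-positive (-0.02), against 29.5% higher and 38.4% lower over all genes in the first and 7.32% and 4.98% in the second. Adrb3, the beta-3 receptor of adipocytes, rose by 0.51 ± 0.10 in the first, from a median of 417.3 to 560.6 CPM, and had the lower median in the high group in the second (344.1 against 532.8 CPM, -0.34 ± 0.15, adjusted p = 0.11). The beta-1 receptor gene Adrb1 gave 1.28 ± 0.11 and 0.07 ± 0.15. Npr3, the clearance receptor for natriuretic peptides, fell by 1.43 in the first and gave -0.12 ± 0.10 in the second. Of 12 genes of heat production without UCP1, 7 rose and 5 fell in the Ddx3y-negative stratum, and 2 rose in the other, so that the share that fell was near that over all genes. Ckb and Gatm of creatine cycling fell by 0.73 and 0.73, and Alpl, a phosphatase placed in the same cycle, rose by 0.57 ± 0.11 (0.21 with library totals alone, adjusted p = 0.080), while none of these 3 was called in the Ddx3y-positive stratum (0.08 ± 0.14, 0.24 ± 0.10 and 0.01 ± 0.10).

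Of 17 adipocyte genes 10 rose and 5 fell (Adipoq, Lep, Cidec, Lpl and Dgat2) in the Ddx3y-negative stratum, where 29.5% of all genes rose and 38.4% fell. In the other 2 rose and 2 fell, near the 7.32% and 4.98% over all genes. Pparg, the master regulator of adipocytes, rose by 0.46 ± 0.06 and gave 0.06 ± 0.06 (adjusted p = 0.54). Adipoq fell in both strata by 0.24 and 0.27 on the log2 scale (adjusted p = 0.00038 and 0.049), and the difference between the strata was 0.03 ± 0.12 (adjusted p = 0.85). Most of the alternatives ended the Ddx3y-positive call of Adipoq (adjusted p up to 0.32), and the macrophage score as covariate ended both.

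Leptin and markers of fat expansion parted the strata. Lep, whose mRNA follows fat cell size, ranged from 11.9 to 1858 CPM (median 291.7) in the high and from 0.717 to 4362 CPM (median 1385) in the low Ddx3y-negative group, and only 1 of 57 high libraries lay above the median of the low group. It fell by 2.12 on the log2 scale (SE 0.24, adjusted p = 8.69e-14). Its Ddx3y-positive medians were 2123 and 1961 CPM (0.03 ± 0.18, adjusted p = 0.94), and the difference between strata was -2.15 ± 0.29 (adjusted p = 4.28e-11). All 9 genes of the fat expansion list, which includes Lep, fell in the Ddx3y-negative high group (median -1.25), and 2 of 9, Sfrp5 and Wnt10b, fell in the other (-0.14). The shares of all genes that fell were 38.4% and 4.98%.

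Mest, an imprinted gene that rises with fat mass gain, fell by 2.51, with medians of 25.2 and 193.2 CPM, and gave -0.24 ± 0.28 (adjusted p = 0.61) in the Ddx3y-positive stratum. Sfrp5, a secreted Wnt inhibitor, fell by 2.49 and 0.61, with medians of 7.29 and 76.9 CPM in the first and 123.2 and 200.2 CPM in the second stratum. Bmp3 fell by 1.25 in the first and gave -0.16 ± 0.14 in the second. In single blocks of mouse numbers Lep lay between -3.24 and -1.09 and Mest between -3.41 and -1.74 in the Ddx3y-negative stratum, and both changed sign between blocks in the other.

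Macrophage genes moved in opposite directions. All 18 fell in the Ddx3y-negative high group (median -1.10), and 13 rose and none fell in the Ddx3y-positive high group (median 0.69). Over all genes 38.4% fell in the former and 7.32% rose in the latter. All 18 macrophage genes passed the interaction test, and 13 were called in opposite directions. Their summed level was 332.8 to 1234 CPM (median 703) in the high and 528.1 to 3713 CPM (median 1348) in the low Ddx3y-negative group, and 535.9 to 9624 CPM (median 1973) and 791 to 6570 CPM (median 1484) in the Ddx3y-positive groups. None of the defining markers Adgre1, Cd68 and Csf1r was at 0 in any of these libraries.

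Adgre1, which encodes the F4/80 antigen, ranged from 10.7 to 70.2 CPM (median 32.6) in the high and from 20.8 to 214.6 CPM (median 53.5) in the low Ddx3y-negative group (-0.98 ± 0.11, adjusted p = 3.54e-14). In the Ddx3y-positive groups it ranged from 14.7 to 565.7 CPM (median 81.9) and from 24.8 to 303.7 CPM (median 55.9), with 42 of 60 high libraries above the median of the low group (0.72 ± 0.17, adjusted p = 0.0026). The groups overlapped over most of their range in both strata. Cd68 gave -1.33 ± 0.13 and 0.81 ± 0.19, whereas Csf1r (-0.75 ± 0.07 and 0.27 ± 0.10, adjusted p = 0.052 in the second) and Mrc1 (-0.71 ± 0.07 and 0.27 ± 0.10, adjusted p = 0.053) were called in the first stratum alone.

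Some genes of lipid-laden macrophages had the widest swings of the macrophage genes named here. Trem2, of the same list, fell in the Ddx3y-negative stratum and was not called in the other. Itgax, which encodes CD11c, gave -3.10 ± 0.30 and 1.15 ± 0.30, and Gpnmb, a lysosomal glycoprotein, -2.59 ± 0.28 and 1.29 ± 0.32, with medians of 11.7 and 35.3 CPM in the Ddx3y-negative and 180.8 and 77.6 CPM in the Ddx3y-positive groups. Mmp12, a macrophage elastase (-3.47 ± 0.38 and 1.09 ± 0.35), Ubd, a ubiquitin-like gene induced by interferon (-2.81 ± 0.33 and 0.88 ± 0.31), and Atp6v0d2, a subunit of the lysosomal proton pump (-3.10 ± 0.32 and 1.30 ± 0.32), followed the same pattern. The Ddx3y-positive calls of Mmp12 and Atp6v0d2 were lost with limma-trend (adjusted p = 0.091 and 0.064), and that of Ubd with library number as covariate and without the libraries that stood apart (0.068 and 0.054). In the Ddx3y-negative stratum Adgre1 (-1.19 to -0.81), Itgax (-3.63 to -2.39) and Gpnmb (-2.61 to -1.49) kept their sign in each block of mouse numbers. In the Ddx3y-positive stratum they did not, and 1 block of 5 gave -0.58 for Adgre1, -0.44 for Itgax and -0.39 for Gpnmb against highest values of 0.91, 2.10 and 1.73.

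When the macrophage score, the mean z-scored level of the 18 genes, was held as a covariate, 24 genes were called in opposite directions, 0.131% in place of 3.7% of the genes tested, and 6884 and 1297 genes in place of 12470 and 2261. In that fit the brown fat list had 26 higher and 0 lower in the Ddx3y-negative and 21 higher in the Ddx3y-positive stratum, and complex I had 37 and 30 of 37 higher. The covariate was made from genes that differ between the groups, so it also takes out whatever moves with them. Of the genes named here, it ended the Ddx3y-negative calls of Thbs1, Slc5a7, Elmod2, Ucp2, Tmem26, Alpl, Adrb3, Aldh6a1, Thrsp, Adipoq, Mrc1, Ighm, Pdgfra, Col1a1, Timp1 and Gm13340, besides those whose sign turned. Among Ddx3y-positive calls it ended those of the macrophage genes Adgre1, Cd68, Itgax, Gpnmb, Mmp12, Ubd and Atp6v0d2, and of Krt19, Folh1, Cmip, Fam129b, Tmem26, Elovl6, Adipoq, Lars2, Gm26917 and Gm13340.

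Cell division, matrix and other cell types fell with the macrophage genes in the Ddx3y-negative stratum. Of 18 proliferation genes 17 fell (median -1.26) and in the Ddx3y-positive stratum 2 rose (0.27). Of all genes, 38.4% fell in the first and 7.32% rose in the second stratum, so 2 of 18 lies near the share over all genes. Mki67, of dividing cells, gave -1.57 ± 0.18 and 0.29 ± 0.18 (adjusted p = 0.27), and Top2a -1.50 ± 0.18 and 0.30 ± 0.17 (adjusted p = 0.23). All 12 genes of fibrillar collagen and its partners fell in the Ddx3y-negative stratum (median -0.89). In the other 1, Timp1, rose (0.27), also near the share of all genes that rose there. Col1a1 gave -1.11 ± 0.14 and 0.37 ± 0.15 (adjusted p = 0.081), Fn1, fibronectin, -0.89 ± 0.10 and -0.03 ± 0.11, and Timp1, an inhibitor of metalloproteinases, -1.91 ± 0.21 and 1.12 ± 0.27. With groups of 1 in 3 libraries 6 proliferation genes and 5 matrix genes rose in the Ddx3y-positive stratum, as did 1851 of all 18379 genes.

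Of 12 progenitor genes 10 fell in the Ddx3y-negative stratum (median -0.39), among them Pdgfra (-0.33 ± 0.07), and none was called in the other. T cell genes gave 9 of 10 lower (-0.58) and 1 higher, B cell genes 9 of 10 lower (-0.61) and none called, with Ighm at -1.25 ± 0.25 and -0.30 ± 0.19 (adjusted p = 0.29). Mesothelial genes fell 10 of 10 in the first stratum (-0.49) and 3 of 10 in the second (-0.29), with Msln at -0.67 ± 0.11 and -0.33 ± 0.13 (adjusted p = 0.072). Smooth muscle and mural genes gave 7 of 9 lower and 1 higher, and 1 lower and 1 higher. Of 13 endothelial genes 3 rose and 7 fell in the first, where 29.5% of all genes rose and 38.4% fell, and 4 fell in the second, where 4.98% did. Pecam1 gave -0.31 ± 0.05 and -0.12 ± 0.04 (adjusted p = 0.051), and Vegfa, the angiogenic growth factor, rose in the first (0.79 ± 0.08, medians 298.5 and 161.1 CPM) and fell by 0.44 in the second (medians 140 and 194.8 CPM). Cytosolic ribosomal genes fell slightly in the first stratum (13 of 22, median -0.12, Rpl4 -0.20 ± 0.03) and none was called in the second. Clock genes gave 10 of 16 higher and 1 lower in the first (0.45) and 1 higher in the second, and interferon genes 6 of 12 lower and 1 of 12 lower. Integrated stress genes gave 6 of 12 higher and 3 lower in the first and 3 higher and 1 lower in the second, and immediate early genes 4 of 11 higher and 1 lower, and 1 higher. Schwann cell and nerve genes gave 3 of 7 higher and 1 lower in the first and none called in the second, and genes of depot identity 4 of 13 higher and 7 lower, and 1 lower. These lists are short, and the lower interferon genes and the higher immediate early and depot genes of the first stratum, like the single calls of the second, lie near the shares over all genes (29.5% higher and 38.4% lower, and 7.32% and 4.98%).

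**Figure D5:**
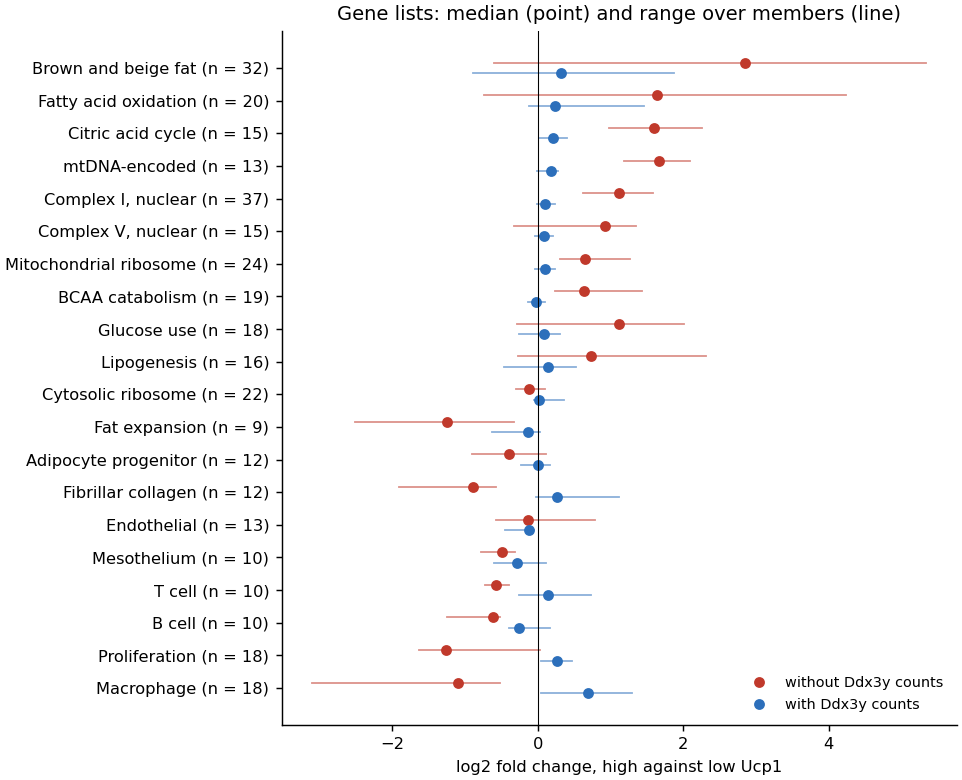
Median log2 fold change of high against low Ucp1 libraries over the tested members of 20 gene lists (points) with the range over members (lines), for both strata. The medians of the mitochondrial and fuel lists lie to the right of 0 in the Ddx3y-negative stratum and nearer to it in the other, where that of branched-chain amino acid breakdown is at -0.02, and the macrophage list lies at -1.10 in one stratum and 0.69 in the other.

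Genes lower in both strata formed a different group. Among those averaging 10 CPM or more in each stratum, Plagl1, an imprinted zinc finger gene, fell by 0.89 and 0.76 on the log2 scale and led by the smaller of its decreases. Its medians were 50.7 and 77.7 CPM in the Ddx3y-negative and 38.1 and 65.04 CPM in the Ddx3y-positive groups. Thbs1, the matrix protein thrombospondin 1, fell by 0.70 and 0.67, Krt19, a keratin of mesothelial cells, by 0.62 and 0.60, and Ccn3, a secreted matricellular protein, by 0.74 and 0.57. The Wnt inhibitor Apcdd1 (0.57 and 0.56), the GABA transaminase Abat (1.08 and 0.55), Folh1 (1.43 and 0.54), the actin nucleator Cobl (0.57 and 0.53) and Retnla, a resistin-like gene (0.73 and 0.50), also fell in both. For Plagl1, Thbs1, Krt19, Ccn3, Apcdd1, Cobl and Retnla the interaction was not called, with differences between the strata of -0.23 to -0.01 on the log2 scale, while Sfrp5, Abat and Folh1 fell further in the Ddx3y-negative stratum. The groups overlapped for each of them in both strata. Groups of 1 in 3 libraries ended the Ddx3y-positive call of Thbs1 (-0.38, adjusted p = 0.058), limma-trend and library number as covariate that of Krt19 (0.071 and 0.058), and removal of the libraries that stood apart that of Folh1 (0.061). The macrophage score as covariate ended the Ddx3y-positive calls of Krt19 and Folh1 (0.15 and 0.070) and that of Thbs1 in the Ddx3y-negative stratum (-0.24, adjusted p = 0.46).

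The 5 genes that follow averaged 10 CPM or more in each stratum and had the lowest p of the interaction in the negative direction, though not its largest values. Cmip gave -0.47 ± 0.04 and 0.09 ± 0.03, Srd5a3 -0.47 ± 0.03 and 0.08 ± 0.04, Fam129b -1.03 ± 0.09 and 0.46 ± 0.11, Ppp1r18 -0.67 ± 0.05 and 0.13 ± 0.05 and Itm2c -0.64 ± 0.05 and 0.04 ± 0.05. Of these, Cmip and Fam129b were also called in the Ddx3y-positive stratum (adjusted p = 0.048 and 0.0032), the former not with limma-trend, library totals alone, no filter or library number as covariate. Slc5a7, a choline transporter gene (-3.31 ± 0.42), and 1700047G03Rik (-2.90 ± 0.30) also fell in the Ddx3y-negative stratum, and neither was called in the other (0.27 ± 0.25 and -0.22 ± 0.20).

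Some of the largest fold changes of the Ddx3y-positive stratum came with equal or nearly equal medians and a few very high libraries. Ceacam10, a member of the epididymis list, had the largest of the named genes (6.75 ± 0.94), with medians of 0.311 and 0.280 CPM but 17020 CPM in 1 high library that stood apart by epididymis genes. Without the libraries that stood apart it gave 0.45 (adjusted p = 0.64). Cwc22, a splicing factor gene known for copy number differences among mouse strains, had medians of 22.4 CPM in both groups and a highest value of 804 CPM in the high group, where 4 of 60 libraries lay above every low one, and its increase of 1.56 ± 0.25 became 0.01 with DESeq2 and 0.34 with limma-trend (adjusted p = 0.93 and 0.17). The decreases of Lars2, Gm26917 and Gm42418 (0.89, 0.88 and 0.87 on the log2 scale), which overlap sequence similar to ribosomal RNA, turned into values of 0.10, 0.23 and 0.12 without the libraries that stood apart, 1 of which was a low library with over 10% of its counts from the ribosomal gene CT010467.1. Gm13340 (-0.97 ± 0.32, adjusted p = 0.034) was no longer called in 6 of 11 alternatives. Mycl, a relative of the Myc factor, fell by 0.97, with medians of 8.90 and 22.5 CPM, and was called under all 11 alternatives.

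The middle libraries, which the comparison of high and low groups did not use, were fitted for a slope on log2(Ucp1 CPM + 1). Among the Ddx3y-negative middle libraries, with Ucp1 from 75.4 to 825 CPM, 3273 of 18370 genes were called (17.8%), 1757 with a positive (9.56%) and 1516 with a negative slope (8.25%). Of the genes higher in the high group of that stratum 90.6% had a positive slope and 32.01% a called one, and of those lower 91.5% had a negative slope and 20.4% a called one. Among the Ddx3y-positive middle libraries, with Ucp1 from 0.985 to 7.61 CPM, 1.39% of 18379 genes were called, 52 with a positive slope (0.283%) and 1.11% of the genes with a negative one. Of the 1345 genes higher in its high group 87.96% had a positive slope, and 20 had a called positive and 18 a called negative one. Of those lower 87.1% had a negative slope, and 11 had a called negative and 1 a called positive one. Only 31 of these calls were also called in the same direction between the high and low groups, and only 1 gene was called with limma-trend and 6 with capped counts.

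Among the Ddx3y-negative middle libraries 25 of 32 brown fat genes had a called positive slope and none a negative one (median 0.47 per doubling of Ucp1 + 1), with Cidea at 0.80 ± 0.05, Cpt1b at 0.77 ± 0.04 and Fabp3 at 1.01 ± 0.06. Over all genes 9.56% had a called positive and 8.25% a called negative slope there. All 37 complex I genes (0.20), 15 of 15 of the citric acid cycle (0.29) and 18 of 20 of fatty acid oxidation (0.28) rose, and Cpt1a had a called negative slope (-0.13). Macrophage genes had 13 of 18 called negative slopes (-0.16), whereas none of the 9 fat expansion genes was called (-0.17, Lep -0.32 ± 0.13, adjusted p = 0.074). Of 18 proliferation genes 1 had a called negative slope, near the share over all genes. Among the Ddx3y-positive middle libraries 2 of 32 brown fat genes were called, namely Cox7a1 (0.29 ± 0.07, adjusted p = 0.016) and Cpt1b (0.36 ± 0.08, adjusted p = 0.0049), with Cidea at 0.30 ± 0.12 (adjusted p = 0.18). Over all genes 0.283% had a called positive and 1.11% a called negative slope in that stratum. The fatty acid oxidation genes Hadha (0.15 ± 0.04) and Acaa2 were also called (adjusted p = 0.0067 for each). No macrophage gene was called there (median 0.36, Adgre1 0.34 ± 0.13, adjusted p = 0.19).

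The neighbours of Ucp1 on chromosome 8 changed far less than Ucp1. Tbc1d9, which lies below it in coordinates (83165352 to 83272934), fell by 0.20 in the Ddx3y-negative stratum and gave 0.13 ± 0.07 (adjusted p = 0.20) in the other. Elmod2, which lies above it (83312632 to 83332486), rose by 0.18 ± 0.06 and 0.18 ± 0.05 (adjusted p = 0.0025 and 0.0049), with medians of 50.2 and 43.5 CPM and of 43.4 and 38.1 CPM. Under library totals alone, with no TMM factor, the value of Elmod2 in the Ddx3y-negative stratum was -0.14.

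Transcripts of tissues that may enter a dissection were low or single-library events for most lists, but those of the liver list were abundant in every group. The summed liver list had medians of 2728 and 2043 CPM in the Ddx3y-negative and 1950 and 2221 CPM in the Ddx3y-positive groups, and 1 gene rose and 1 fell in the first and 1 fell in the second. Of the ovary and oviduct list 4 genes could be tested, 3 of which fell in the Ddx3y-negative stratum (median -2.72), where 1 low library reached a summed level of 1386 CPM against group medians of 4.39 and 4.85 CPM. The pancreas list had 1 testable gene, Cela1, which fell in the first stratum, and the epididymis list had 2, of which neither was called in the first and Ceacam10 rose and Adam28 fell in the second. For the mammary list 3 genes could be tested, with 1 higher and 2 lower in the first and 1 higher in the second stratum. Over all genes 29.5% were higher and 38.4% lower in the first stratum, and 7.32% and 4.98% in the second. The counts of such short lists are given as a description. No library stood apart by the liver list. That criterion rested on a multiple of the list's own median, which was 2317 CPM over all libraries. The highest sum in the Ddx3y-positive high group, 12550 CPM, did not reach it, so smaller amounts of liver RNA could not be detected this way. No criterion was set on the ovary and oviduct or the mammary list. The part of liver, ovary, oviduct and mammary tissue in the results above was therefore not tested. Without the libraries that stood apart by the other criteria 12455 and 2039 genes were called.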

How the data were processed

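Poly(A) RNA of 1 adipose sample per mouse was sequenced as read pairs. Per the methods, reads were aligned as single ends to a transcriptome of the 8 founder strains and apportioned by EMASE within GBRS, and weak transcripts were removed. The authors deposited expected counts per gene, of which 66.8% are whole within 1e-06. A second deposited table of transformed values was not used here. The submitters' processing notes name GRCm38 and DESeq2.

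Expected counts were rounded. The 18380 of 23180 genes with at least 10 counts in 50% of libraries were kept, a gene without counts in a fit being left out, and no sample column was left unused for want of a label. Within each stratum edgeR 4.0.16 (R 4.3.3) fitted the high against the low group by glmQLFit with TMM factors and its default prior count. A prior count of 2 entered only the log2 levels used for limma-trend and the macrophage score. The interaction came from a fit of the 4 groups, and the middle libraries were fitted on log2(Ucp1 CPM + 1). P-values were adjusted by Benjamini-Hochberg over all genes of a fit. Levels are CPM after TMM scaling, except that Ucp1, as the basis of the groups, is plain CPM. Each mouse gave 1 library, so spread is between animals, and the closest pair of libraries differed by a chi-square of 450 per gene, so none was a repeat. The fit was checked on simulated data. Libraries stood apart if a muscle, liver, pancreas or epididymis list summed to over 100 CPM and over 10 times the median, if over 10% of counts came from CT010467.1, or if they had neither Ddx3y nor 100 CPM of Xist.

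Named genes were the 10 with the largest smaller change in each direction among genes called alike in both strata, the 5 with the lowest interaction p in each direction, the 5 most changed in each direction per stratum (with a mean of at least 10 CPM in both strata, or in the stratum ranked, and leaving out genes of the Y chromosome, Xist and Tsix), members of gene lists, related gene pairs, the neighbours of Ucp1, and Pparg, Lep and Adipoq. Some genes that these rules select are not reported here. Members and lists were chosen with earlier results of these data known. Alternatives were DESeq2 1.42.0, limma-trend (limma 3.58.1), other scalings, no filter, capped counts, groups of 1 in 3 libraries, covariates for mouse number, library number and macrophage score, and removal of the libraries that stood apart.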

Additional observations from a re-analysis of the deposited data

Results flagged for a closer look

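The change with Ucp1 was compared between the strata by the interaction test of edgeR, and 10280 genes passed it at an adjusted p under 0.05, with 3.7% of the genes tested called in opposite directions. Of the genes examined by name, 63 passed with the more positive and 41 with the more negative change in the Ddx3y-negative stratum, and 16 were called in opposite directions. The values that follow are differences of log2 fold changes, Ddx3y-negative minus Ddx3y-positive. The range of Ucp1 was also unequal between the strata, as given in the report, and its part in these differences was not tested. The groups held more than 10 libraries each, so no single library was tested as an outlier.

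A more positive change in the Ddx3y-negative stratum was found as follows. Among thermogenic genes it was Acot11 5.20, Elovl3 4.75, Aspg 4.08, Cidea 3.48, Fabp3 3.47, Phospho1 3.30, Dio2 2.91, Ppara 2.85, Cpt1b 2.78, Letmd1 2.73, Ppargc1a 2.35, Esrrg 2.04, Pdk4 1.82, Otop1 1.67, Kcnk3 1.47, Ucp3 1.46, Plin5 1.28, Chchd10 1.27, Adrb1 1.21, Clstn3 0.98, Prdm16 0.86, Adrb3 0.85, Alpl 0.55 and Ebf2 0.51. Among genes of the respiratory chain and the mitochondrial ribosome it was Cox7a1 3.21, Cox8b 2.47, mt-Nd1 1.48, Uqcrc1 1.47, mt-Co1 1.46, Sdhb 1.35, Ndufs1 1.25, Cox6a1 1.18, Atp5b 1.16, Cox4i1 0.98, Cox7a2 0.86, Cox8a 0.80 and Mrpl12 0.69. Among genes of fuel oxidation it was Acaa2 2.11, Acadvl 2.06, Hadhb 1.92, Hadha 1.79, Sucla2 1.76, Ogdh 1.71, Pdha1 1.51, Acadm 1.37, Bckdha 1.35, Cs 1.11 and Aldh6a1 0.80. Among genes of fat and glucose handling it was Thrsp 1.61, Elovl6 1.57, Hk2 1.52, Mlxipl 1.47, Fasn 1.37, Slc2a4 0.80, Pnpla2 0.70 and Pparg 0.40. Among other genes it was Ckm 3.17, Gm13340 1.81, Gm26917 1.74, Lars2 1.64, Gm42418 1.59, Mycl 1.30 and Vegfa 1.24. Without the libraries that stood apart, the Ddx3y-positive decreases behind Gm26917, Lars2 and Gm42418 turned positive and were not called. The Ddx3y-negative adjusted p of Ckm reached 0.84 over the alternatives.

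A more negative change in the Ddx3y-negative stratum was found as follows. Among macrophage genes and the genes that swung with them it was Mmp12 -4.56, Atp6v0d2 -4.40, Itgax -4.25, Gpnmb -3.89, Ubd -3.69, Cd68 -2.14, Adgre1 -1.70, Csf1r -1.02 and Mrc1 -0.98. Among genes of fat expansion, heat production and fuel oxidation it was Mest -2.27, Lep -2.15, Sfrp5 -1.88, Tmem26 -1.32, Npr3 -1.31, Bmp3 -1.09, Ucp2 -1.08, Gatm -0.97, Cpt1a -0.84, Ckb -0.81 and Atp5g1 -0.29. Of these, Tmem26 is on the brown fat list, Cpt1a on that of fatty acid oxidation and Atp5g1 on that of complex V, so they went against most of their lists. Among genes of matrix, proliferation and other cell types it was Timp1 -3.03, Mki67 -1.87, Top2a -1.80, Col1a1 -1.48, Ighm -0.96, Fn1 -0.86, Pdgfra -0.50, Rpl4 -0.20 and Pecam1 -0.20. Among other genes it was Ceacam10 -6.45, Slc5a7 -3.57, 1700047G03Rik -2.68, Cwc22 -1.68, Fam129b -1.49, Folh1 -0.90, Ppp1r18 -0.79, Itm2c -0.68, Cmip -0.56, Srd5a3 -0.55, Abat -0.53 and Tbc1d9 -0.34. The value of Ceacam10 rests on 1 library with 17020 CPM. That of Cwc22 rests on a Ddx3y-positive increase of 1.56 that became 0.01 with DESeq2.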

How the results depend on the processing

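Shares are of the genes tested. With the macrophage score as covariate 37.5% and 7.06% were called in the Ddx3y-negative and Ddx3y-positive stratum in place of 67.9% and 12.3%, 0.131% in opposite directions in place of 3.7%, 32.7% by the interaction in place of 55.9%, and 6.16% and 0.288% among the middle libraries in place of 17.8% and 1.39%. In that fit the Ddx3y-negative values were 0.11 for Mmp12, 0.37 for Ubd, 0.22 for Gpnmb, 0.32 for Atp6v0d2, 0.11 for Tbc1d9, 0.12 for Adgre1, 0.093 for Cd68 and 0.013 for Itgax, all of the other sign than without it and none called. Genes called in opposite directions were 1.98% with limma-trend and 6.01% with groups of 1 in 3 libraries. Those groups, which leave fewer middle libraries, gave 3.8% and 2.15% of calls among them, and library totals alone gave 42.2% for the Ddx3y-negative ones. For the Ddx3y-positive middle libraries DESeq2 gave 2.36%, limma-trend 0.00544%, no filter 2.81% and capped counts 0.0326%. Library totals alone moved the median log2 fold change of the Ddx3y-negative stratum from -0.05 to -0.37 and the share of calls that were higher from 43.5% to 13.2%, and turned Elmod2 to -0.14. In the Ddx3y-positive stratum limma-trend moved that share from 59.5% to 48.8%. There Lars2 was 0.18 with DESeq2, 0.10 with limma-trend, 0.090 with capped counts and 0.10 without the libraries that stood apart, Gm26917 was 0.27, 0.16, 0.21 and 0.23, and Gm42418 was 0.15, 0.066, 0.11 and 0.12. The cause of these shifts was not tested. Of the values of named genes under the 11 alternatives, 1241 in the Ddx3y-negative stratum kept direction and side of the threshold, with 23 no longer called, 3 newly called and 9 of the other sign, and 1163, 75, 26 and 12 in the Ddx3y-positive stratum. No paired analysis was possible because each mouse gave 1 library and the labels pair none. Ddx3y counts are not a label, and the strata were matched to the sexes only by the numbers of females and males that the study gives. Generation and sequencing batch are not given, so the part of these 2 was not tested beyond the order of mouse and library numbers.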
